A study of Homo sapiens with 6 samples.

Results

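The nuclear pore complex genes are the protein-coding genes of the count table whose symbol is NUP followed by a number and at most 1 further letter, plus AAAS, NDC1, POM121, POM121C, RAE1, RANBP2, SEH1L, SEC13, TPR and AHCTF1. The rule names them by symbol and uses no measured value, and it found 32 of the 22941 genes in the table. RNA was sequenced from HSC-3 cells, an established line of human oral squamous cell carcinoma, kept in DMEM with fetal bovine serum and antibiotics. The simulated microgravity group had 3 libraries, from cells turned in a Rotary Cell Culture System (RCCS), whose constant rotation keeps cells in suspension and averages out the direction of gravity. The normal gravity group had 3 libraries as well. The labels give no genetic change, no agent and no time in culture for either group, and they call the libraries biological replicates without saying how separate the cultures were, so the p-values below speak of the spread over these libraries, which may be technical. All cells come from 1 tumour line, and rotation is a model of weightlessness.

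The nuclear pore is the channel through which messenger RNA, ribosomal subunits and proteins cross the nuclear envelope. Its outer rings are built of the Y complex and its inner ring of the NUP93 group, which together form a scaffold that is very long-lived in cells that do not divide. Proteins with disordered repeats of phenylalanine and glycine (FG repeats) fill the central channel, filaments on the cytoplasmic side and a basket on the nuclear side dock transport receptors and messenger RNA, and a few transmembrane proteins hold the ring in the envelope. In dividing animal cells the pore is taken apart at mitosis and rebuilt around the new nuclei, and further pores are inserted during interphase.

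Total counts were between 34264008 and 36317678 in the simulated microgravity libraries and between 37276166 and 38861233 in the normal gravity libraries. Values are normalised read counts (CPM, counts relative to the size of the library, with sizes scaled by the trimmed mean of M-values, TMM), with the SD over n = 3 libraries where an error is given, and a log2 fold change is simulated microgravity minus normal gravity with an approximate standard error (SE). Calls were made with the quasi-likelihood test of edgeR where the p-value, adjusted over all 14736 genes tested, was under 0.05. The epithelial markers KRT5, KRT14, TP63, KRT6A, KRT17, CDH1 and EPCAM were all detected, but at different levels between the groups. KRT14, KRT5 and TP63, markers of basal cells, had log2 fold changes of -3.41, -3.26 and -1.79 and were called lower, CDH1, KRT17 and EPCAM were called higher (1.26, 1.18 and 0.72), and KRT6A was not called. Of 9 keratinocyte differentiation markers, 8 were higher, against 28.2% of all genes tested. The median over the 9 was 4.49 on the log2 scale, and together they summed to 1852 to 2475 CPM in simulated microgravity and 35.6 to 81.2 CPM in normal gravity. The part of this difference in cell state in the pore results was not tested. Of the other cell type markers, 6 of 7 fibroblast genes, 2 of 5 leukocyte genes and 4 of 5 endothelial genes averaged under 1 CPM over the 6 libraries. The defining leukocyte gene PTPRC was at 0 to 0.115 CPM in simulated microgravity and 0.159 to 0.186 CPM in normal gravity. The fibroblast gene COL1A1 averaged 17.3 CPM in simulated microgravity and 17.8 CPM in normal gravity. The endothelial gene VWF averaged 1.88 CPM in simulated microgravity and 2.56 CPM in normal gravity, and neither was called. CDH5, also endothelial, was called higher at low levels (0.746 CPM in simulated microgravity, 0.0531 CPM in normal gravity). CD14 and CD68, leukocyte markers that other cells also express, were higher in simulated microgravity (89.0 and 188 CPM) than in normal gravity (28.7 and 93.6 CPM), and ITGAM was lower (1.53 CPM in simulated microgravity against 5.41 CPM in normal gravity). Their part in the results was not tested. Counts of 15 markers of cell division summed to between 57.5 and 76.8 CPM in simulated microgravity and between 1229 and 2971 CPM in normal gravity, where replicate 3 had the lowest sum. That replicate stands apart from the other normal gravity libraries, so calls of pore genes that change without it are given both ways.

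Most pore genes tested had lower transcript levels in simulated microgravity, and the calls differed by place in the pore. The places were not tested against each other. Of 31 pore genes tested, 20 were lower, none was higher and 11 were not called, where 57.6% of all genes tested were called, 29.3% lower and 28.2% higher. At an unadjusted p under 0.05 edgeR placed 20 pore genes lower and 1, NUP50, higher, and the DESeq2 Wald test and limma-voom called that gene higher. The sign was negative in 26 of 31, against 50.6% of all genes tested. Groups did not overlap in 20 pore genes that were lower and 1 that was higher, against 33.3% and 33.0% of all genes tested. The median log2 fold change was -0.44 for the pore genes and -0.01 for all genes tested. All 5 inner ring genes and 8 of 9 outer ring genes were lower, against 3 of 4 in the central channel, 2 of 6 on the cytoplasmic face, 0 of 3 in the nuclear basket and 2 of 4 membrane genes tested. The share on the cytoplasmic face, 33.3%, came close to the 29.3% of all genes tested. Most falls of pore genes were below 2-fold. Of the pore genes 4, NDC1, AAAS, NUP210 and NUP37, were at least 2-fold lower. Of all genes tested, 15.6% were called and lower by that much. Without normal gravity replicate 3, 23 pore genes were lower and 1 was higher, and without simulated microgravity replicate 1 the lower genes numbered 13. Calls over the whole table moved the same way, with 9555 genes changed when normal gravity replicate 3 was left out, 6938 when simulated microgravity replicate 1 was, and 8482 over all libraries. In bulk RNA, fewer cells of a type and less RNA per cell cannot be told apart.

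**Figure D1:**
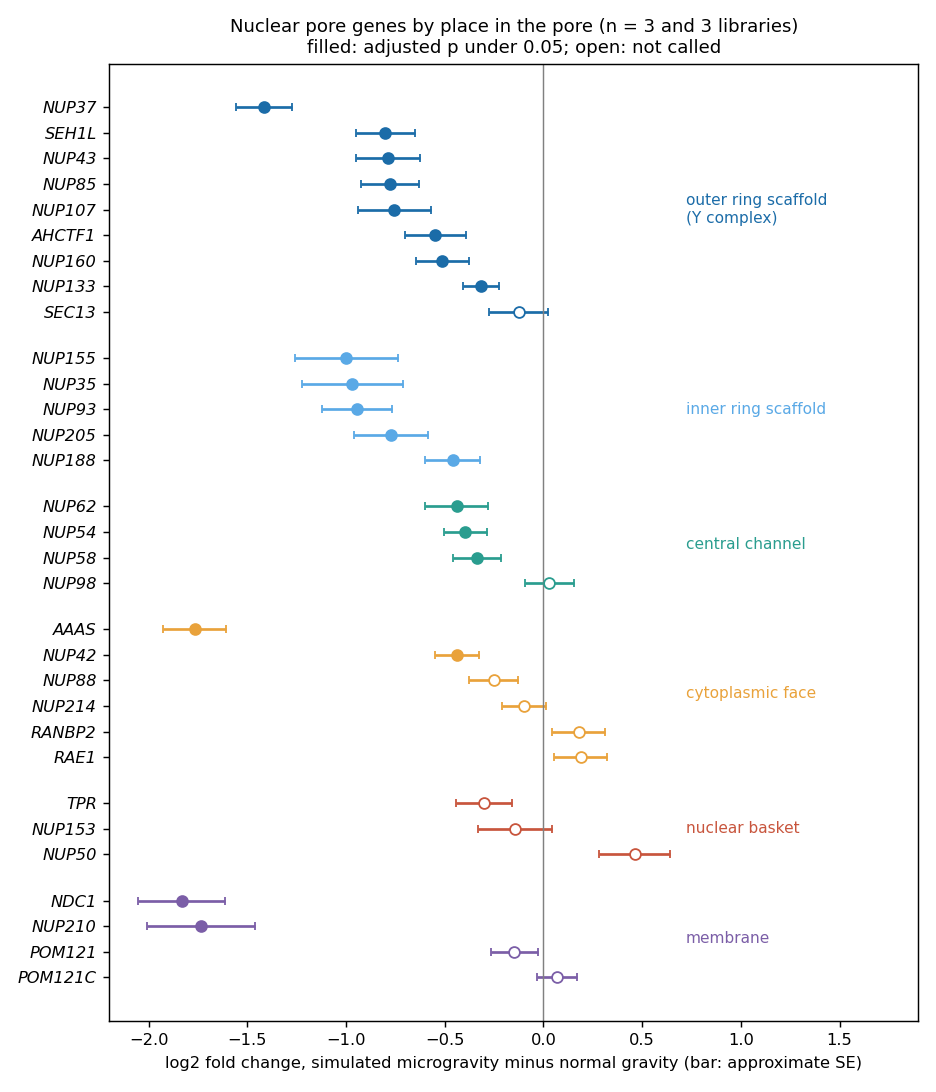
Log2 fold change (simulated microgravity minus normal gravity, x axis) of the 31 pore genes tested, grouped by place in the pore, with bars of 1 approximate SE; filled points passed the test and open points did not. The inner and outer ring points lie left of 0, with NDC1 at -1.83 and AAAS at -1.77 farthest left, and NUP50 of the basket lies farthest right at 0.46.

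The promoters of 4 genes are shown because these genes mark the ends of that range: NDC1, AAAS and NUP37 had the lowest fold changes of the membrane, the cytoplasmic face and the scaffold, and NUP50 had the highest of all members. Each run gives 250 bases before and 50 bases after the start of the gene, 5′ to 3′ on the strand of the gene (RefSeq, GRCh38.p14, the build of all positions given here). Capitals mark matches, on either strand, to motif letters that were searched in every promoter.
NDC1 (chr1:53838247-53838546, minus strand): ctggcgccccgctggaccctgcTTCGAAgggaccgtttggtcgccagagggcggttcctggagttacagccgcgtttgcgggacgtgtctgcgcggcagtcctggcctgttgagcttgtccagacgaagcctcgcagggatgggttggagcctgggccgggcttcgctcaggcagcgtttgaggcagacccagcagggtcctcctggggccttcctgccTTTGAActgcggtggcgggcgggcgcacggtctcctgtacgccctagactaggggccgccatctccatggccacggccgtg
AAAS (chr12:53321561-53321860, minus strand): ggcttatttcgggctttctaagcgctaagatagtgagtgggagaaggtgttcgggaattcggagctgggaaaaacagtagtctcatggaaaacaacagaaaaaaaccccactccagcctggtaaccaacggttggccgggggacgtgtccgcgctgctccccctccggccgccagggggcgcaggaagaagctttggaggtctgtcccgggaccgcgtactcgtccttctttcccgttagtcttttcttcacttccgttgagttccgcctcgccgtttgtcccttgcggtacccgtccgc
NUP37 (chr12:102120065-102120364, minus strand): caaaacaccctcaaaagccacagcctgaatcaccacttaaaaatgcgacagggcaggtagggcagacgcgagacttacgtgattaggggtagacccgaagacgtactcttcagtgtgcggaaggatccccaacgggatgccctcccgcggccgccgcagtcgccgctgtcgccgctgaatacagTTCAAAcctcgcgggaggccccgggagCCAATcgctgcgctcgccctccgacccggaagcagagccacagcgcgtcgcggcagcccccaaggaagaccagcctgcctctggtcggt
NUP50 (chr22:45163675-45163974, plus strand): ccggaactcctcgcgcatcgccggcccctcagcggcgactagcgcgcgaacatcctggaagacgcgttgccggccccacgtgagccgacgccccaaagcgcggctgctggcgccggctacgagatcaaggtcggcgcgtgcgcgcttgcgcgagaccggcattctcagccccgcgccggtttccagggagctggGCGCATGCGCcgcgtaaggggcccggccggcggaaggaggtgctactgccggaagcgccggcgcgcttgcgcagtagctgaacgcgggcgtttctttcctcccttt
The motifs searched were the cell cycle genes homology region CHR (TTTGAA or TTCGAA), the CCAAT box, E2F (TTTGGCGC, TTTCGCGC, TTTCCCGC or TTTGCCGC), the ETS letters CCGGAAGT and NRF1. The NRF1 letters searched are those in capitals in the NUP50 promoter. A pair of CHR matches lies in the NDC1 promoter, beginning 228 and 31 bases before the start. The NUP37 promoter has a CHR match 66 bases and a CCAAT box 39 bases before its start. In the NUP50 promoter the NRF1 match begins 56 bases before the start, and the AAAS window holds none of the motif letters.

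Promoters of 30 of the 32 members were found in the RefSeq table, and no matches of different motifs overlapped in them. AHCTF1 and NUP43 had no entry. CHR letters were in 6 of the 30 promoters (20.0%), against 11.3% of 11546 promoters of tested genes. ETS letters were in 7 (23.3%, against 8.36% of those promoters), NRF1 letters in 3 (10.0%, against 2.19%), CCAAT in 12 (40.0%, against 36.2%) and E2F letters in 1 (3.33%, against 5.2%). The 7 with ETS letters include POM121 and POM121C, whose promoters are near copies of each other. A CHR match and a CCAAT box beginning within 30 bases of each other were found in NUP35, NUP37, NUP98 and NUP205, which is 13.3% of member promoters, against 1.55% of promoters of tested genes. This spacing was looked at after the matches had been seen. Of those 4 genes, NUP35, NUP37 and NUP205 were lower and NUP98 was not called. The NUP35 window (chromosome 2, 183124193 to 183124492) lies inside the gene, whose span begins at 183117514. The RAE1 window (chromosome 20, 57351292 to 57351591) also lies inside its gene, which begins at 57351255. Most of the NUP160 window (chromosome 11, 47848301 to 47848600, minus strand) lies inside its gene, whose span ends at 47848544. Of the 18 genes with a promoter that were lower, 4 had CHR letters, as had 2 of the other 12. The other 12 include NUP210L, which was not tested and which has CCAAT matches. A match is a run of letters and does not show that a factor binds.

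The outer ring scaffold fell in 8 of 9 genes, with a median log2 fold change of -0.76. NUP37 (chromosome 12, 102073103 to 102120114), a propeller protein on the arm of the Y complex, had 14.1, 15.4 and 14.9 CPM in simulated microgravity, against 40.4, 44.7 and 33.1 CPM in normal gravity. The groups were far apart, and the lowest normal gravity library still lay above the highest simulated microgravity library. The log2 fold change of NUP37 was -1.41 (SE 0.14, edgeR adjusted p = 8.80e-05). SEH1L and NUP43, small propellers of the Y complex, fell by 0.80 and 0.79 on the log2 scale. NUP85 and NUP107, which form the short arm and the stalk of the Y, fell by 0.78 and 0.76. NUP160 on the long arm fell by 0.51, and AHCTF1 (ELYS), the chromatin-binding protein that starts pore assembly after mitosis, fell by 0.55. NUP133, which tips the stalk and binds curved membrane, changed least among the genes called, with 61.0, 62.5 and 62.0 CPM in simulated microgravity and 80.8, 75.2 and 74.7 CPM in normal gravity (log2 fold change -0.32, SE 0.09, edgeR adjusted p = 0.0157).

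SEC13 was the outer ring gene that did not pass the test. It also builds the COPII coat of vesicles that leave the endoplasmic reticulum, and so has a role outside the pore. Its level was 23.2, 26.2 and 21.1 CPM in simulated microgravity and 27.6, 27.6 and 21.8 CPM in normal gravity, and the groups overlapped (log2 fold change -0.13, SE 0.15, edgeR adjusted p = 0.49). SEH1L shares a further complex with SEC13, the GATOR2 complex of amino acid sensing, and its 38.9, 45.9 and 42.5 CPM in simulated microgravity lay below the 79.0, 84.4 and 58.6 CPM of normal gravity.

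All 5 inner ring genes fell, with a median log2 fold change of -0.94. NUP93 (chromosome 16, 56730129 to 56850286), the linker that ties the inner ring to the central channel, had 29.7, 26.8 and 25.5 CPM in simulated microgravity, against 57.1, 61.9 and 38.7 CPM in normal gravity. Each simulated microgravity value was below each normal gravity value (log2 fold change -0.94, SE 0.18, edgeR adjusted p = 0.00202). NUP155, a bridge between the inner ring and the membrane, had 38.6, 48.9 and 36.8 CPM in simulated microgravity and 90.0, 107 and 51.2 CPM in normal gravity. NUP35, which binds membrane and NUP155, had 6.38, 5.98 and 6.18 CPM in simulated microgravity and 14.7, 13.9 and 7.68 CPM in normal gravity. For both of them normal gravity replicate 3 was near the simulated microgravity values, and the log2 fold changes of NUP155 and NUP35, -0.999 and -0.97, both had an SE of 0.26. The large paralogous scaffold proteins NUP205 and NUP188 fell by 0.77 and 0.46 on the log2 scale. NUP188 lost its call in 5 of the 14 alternative analyses.

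In the central channel the trimer of NUP62, NUP58 and NUP54 fell by a small amount while NUP98 was not called. NUP54 (chromosome 4, 76114664 to 76148397) had 30.3, 31.0 and 29.1 CPM in simulated microgravity, against 41.1, 41.8 and 35.9 CPM in normal gravity (log2 fold change -0.40, SE 0.11, edgeR adjusted p = 0.0145). NUP62 and NUP58 had log2 fold changes of -0.44 and -0.34, and their edgeR adjusted p-values of 0.0423 and 0.0426 lay close to the threshold. Both calls were lost when DESeq2 size factors (adjusted p = 0.0511 and 0.0535) replaced TMM. Both were also lost with library size alone, limma-voom and the replicate block, and the DESeq2 Wald test called NUP62 but not NUP58. Over the 14 alternatives NUP62 was called lower in 5 and NUP58 in 4. None of the 4 channel genes was called when simulated microgravity replicate 1 or 3 or normal gravity replicate 1 or 2 was left out, NUP54 alone was called without simulated microgravity replicate 2, and the same 3 were called without normal gravity replicate 3. NUP98 encodes a precursor that is cut into the channel protein NUP98 and NUP96, a protein of the Y complex. It had 186, 176 and 178 CPM in simulated microgravity and 182, 199 and 148 CPM in normal gravity, with a log2 fold change of 0.03 (SE 0.12), and its sign was negative with upper quartile scaling (-0.044).

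On the cytoplasmic face AAAS and NUP42 fell and the other 4 genes were not called. The share of this place that was lower, 33.3%, came close to the 29.3% of all genes tested. AAAS (chromosome 12, 53307460 to 53321610), which encodes ALADIN, the protein mutated in triple A syndrome, had 10.1, 11.9 and 8.22 CPM in simulated microgravity, against 35.5, 34.1 and 33.3 CPM in normal gravity. The normal gravity libraries were close together here, replicate 3 included, and the fall was 3.40-fold (log2 fold change -1.77, SE 0.16, edgeR adjusted p = 5.29e-05). NUP42, a cofactor of the GLE1 export factor, had 24.7, 27.5 and 25.0 CPM in simulated microgravity, against 33.3, 37.1 and 34.3 CPM in normal gravity (log2 fold change -0.44). NUP214 and NUP88, which form the platform for messenger RNA export, had log2 fold changes of -0.10 and -0.25. NUP88 was called lower without normal gravity replicate 3 (-0.34, edgeR adjusted p = 0.0192) and with upper quartile scaling (-0.32, edgeR adjusted p = 0.0475), which made 3 of 6 genes lower in each. RANBP2, the large filament protein that binds Ran and attaches SUMO, had 142, 146 and 123 CPM in simulated microgravity and 124, 138 and 101 CPM in normal gravity. RAE1, which binds NUP98 in messenger RNA export, had 61.2, 49.1 and 64.8 CPM in simulated microgravity and 54.8, 53.3 and 45.6 CPM in normal gravity. The groups overlapped for these 4 genes, and the log2 fold changes of RANBP2 and RAE1 were 0.18 and 0.19.

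None of the 3 basket genes passed the test. NUP50 (chromosome 22, 45163925 to 45188017), which helps importin alpha release its cargo, had 118, 97.6 and 109 CPM in simulated microgravity, against 82.0, 96.1 and 57.9 CPM in normal gravity. The groups did not overlap, although simulated microgravity replicate 2 and normal gravity replicate 2 were close, and the log2 fold change of 0.46 (SE 0.18) had an edgeR adjusted p of 0.0532. NUP50 was called higher in 7 of the 14 alternatives, over which its adjusted p ranged from 0.0124 to 0.163. TPR, the coiled-coil protein of the basket fibres, had 222, 233 and 172 CPM in simulated microgravity and 266, 279 and 229 CPM in normal gravity, and NUP153, which anchors the basket, had 115, 101 and 103 CPM in simulated microgravity and 123, 145 and 83.8 CPM in normal gravity. Their log2 fold changes were -0.30 and -0.14. Without normal gravity replicate 3 all 3 were called, TPR (-0.38, edgeR adjusted p = 0.0244) and NUP153 (-0.34, edgeR adjusted p = 0.0173) lower and NUP50 (0.28, edgeR adjusted p = 0.0487) higher. TPR was also called lower with upper quartile scaling (-0.37, edgeR adjusted p = 0.0476).

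The membrane genes split. NDC1 (chromosome 1, 53765478 to 53838296), a transmembrane protein that recruits ALADIN to the pore, had 26.4, 34.7 and 30.4 CPM in simulated microgravity, against 119, 134 and 73.8 CPM in normal gravity. The fall was 3.56-fold (log2 fold change -1.83, SE 0.22, edgeR adjusted p = 2.56e-04), with no overlap. NUP210, the glycoprotein gp210 whose domains lie in the lumen of the envelope, had 13.3, 14.3 and 13.3 CPM in simulated microgravity, against 48.5, 60.9 and 26.6 CPM in normal gravity (log2 fold change -1.74, SE 0.27, edgeR adjusted p = 0.00101). POM121 and POM121C, transmembrane proteins with FG repeats, had log2 fold changes of -0.15 and 0.07 and overlapping groups, and the sign of POM121C was negative with upper quartile scaling (-0.0084). NUP210L, a relative of NUP210 known mainly from testis, had 2, 0 and 2 counts in simulated microgravity and 2, 0 and 0 counts in normal gravity and was not tested. It is the member that did not pass the filter on low counts.

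**Figure D2:**
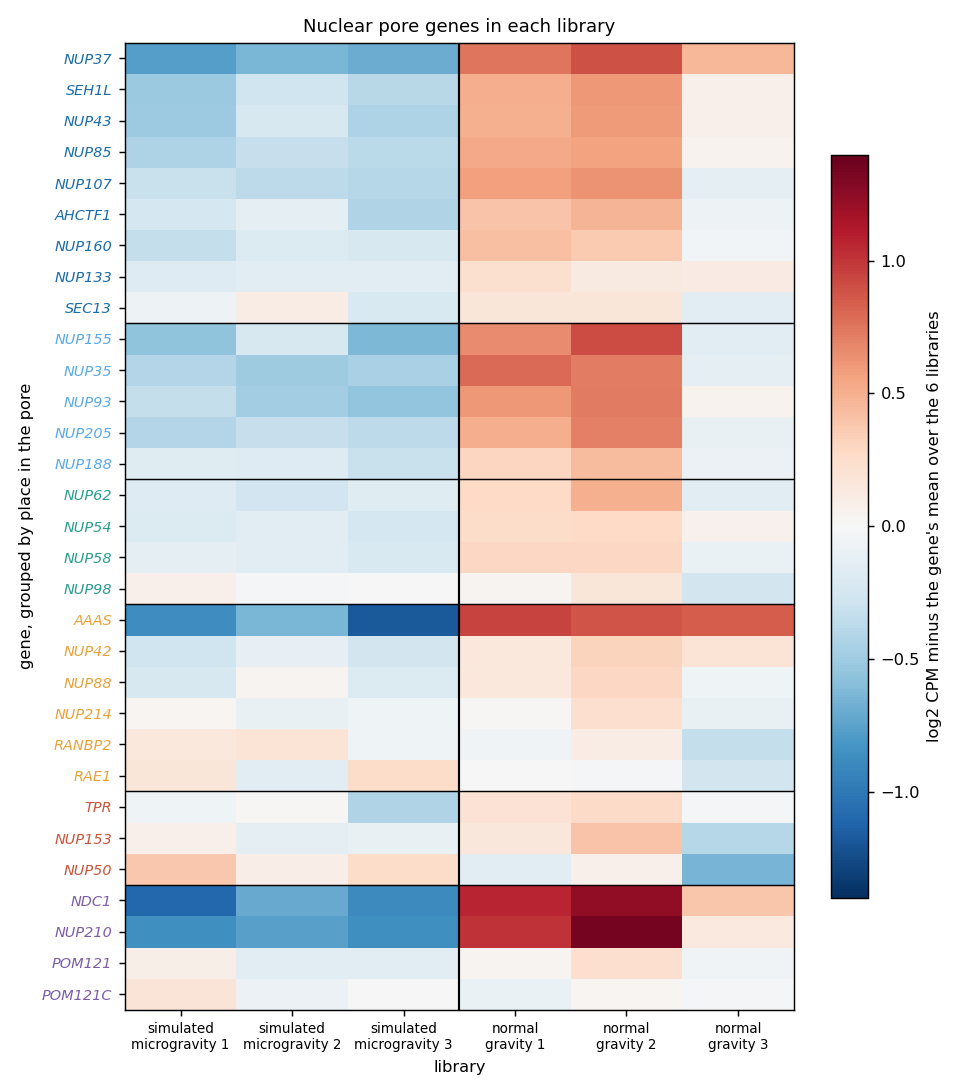
Log2 CPM of the 31 pore genes tested in each of the 6 libraries (columns), minus the mean of the gene over the libraries, in order of place in the pore (rows). Most scaffold rows are blue in simulated microgravity and red in normal gravity replicates 1 and 2, and many are pale in replicate 3, while AAAS is dark red in all 3 normal gravity libraries.

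Normal gravity replicate 3 lay between the groups for much of the pore. It was below the mean of replicates 1 and 2 in 30 of 31 pore genes, where 49.5% of all genes tested were below it, and the median difference was -0.43 on the log2 scale. The 15 division markers were all below it as well, with a median difference of -1.15, and 8 of 9 keratinocyte differentiation markers were above it, with a median of 1.53. POM121C, at 0.01, was the pore gene that was not below. The genes with the largest differences were NUP210 (-1.03), NUP155 (-0.94), NUP35 (-0.89) and NDC1 (-0.77), while NUP42 (-0.03), NUP133 (-0.06) and AAAS (-0.06) differed least among those that fell. Of the 31 tested genes, 8 had a simulated microgravity mean above replicate 3, namely SEC13, NUP98, RAE1, RANBP2, NUP214, NUP50, NUP153 and POM121C, and none of these 8 was called over all libraries. The part of cell division in these differences was not tested.

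A grouping by FG repeats was made after the values had been seen and was not tested. Of 11 tested genes commonly counted as FG-repeat proteins (NUP62, NUP58, NUP54, NUP98, NUP214, RANBP2, NUP42, NUP153, NUP50, POM121 and POM121C), 4 were lower and 7 were not called, with log2 fold changes between -0.44 and 0.46. Of the other 20 tested genes, 16 were lower and 4 were not called, with log2 fold changes between -1.83 and 0.19. The median was -0.14 with FG repeats and -0.77 without them. Of all genes tested 29.3% were lower, and the FG-repeat genes were near that share. The genes without FG repeats that were not called were SEC13, NUP88, RAE1 and TPR.

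The makeup of the pore transcript pool was also set out in a form that does not depend on library scaling. For each library the CPM of each gene was divided by its exon length in kilobases, and the share of each place in the sum over all 32 members was taken. The basket took 17.98%, 16.4% and 16.2% of the pool in simulated microgravity, against 12.6%, 13.1% and 12.4% in normal gravity. The outer ring took 22.8%, 24.7% and 24.0% in simulated microgravity, against 28.3%, 27.1% and 27.5% in normal gravity. Inner ring genes took 13.8%, 14.1% and 13.8% in simulated microgravity, against 16.96%, 17.5% and 14.7% in normal gravity. Membrane genes took 7.61% ± 0.25 in simulated microgravity and 9.73% ± 0.41 in normal gravity (SD, n = 3 each). Central channel genes took 14.9% ± 0.39 in simulated microgravity and 12.8% ± 0.33 in normal gravity. For each of these 5 places the libraries of the groups did not overlap. The cytoplasmic face took 22.6% to 23.2% in simulated microgravity and 19.6% to 22.8% in normal gravity, and there the groups overlapped. A share of one place rises when that of another falls, so these 6 values are not independent, and they were not tested.

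**Figure D3:**
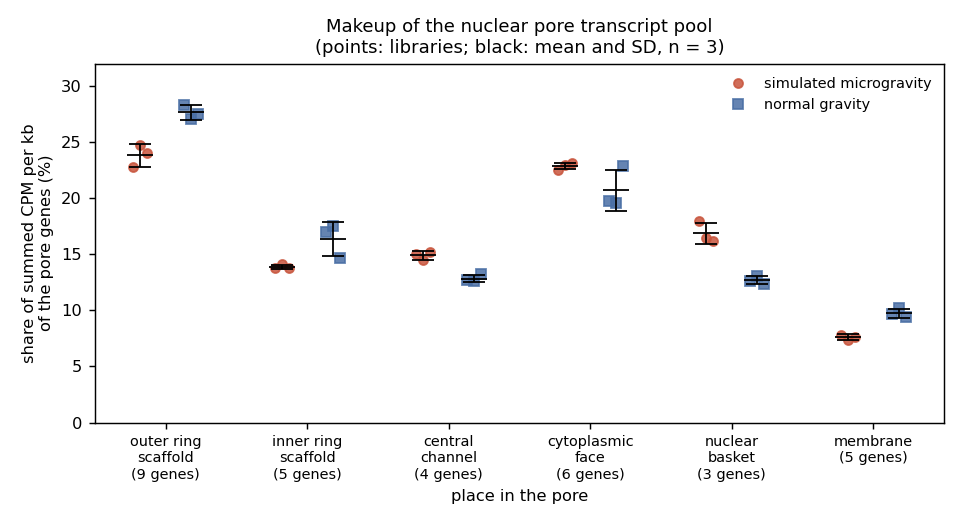
Share (%) of the summed CPM per kilobase of exon of the 32 pore genes that each place in the pore took, by library, with simulated microgravity (circles) left of normal gravity (squares) and mean and SD in black (n = 3 each). The basket points lie higher in simulated microgravity (16.2% to 17.98%) than in normal gravity (12.4% to 13.1%), and the outer ring points lie lower.

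Per kilobase of exon, levels of the pore genes in simulated microgravity were highest for NUP88 (22.6 ± 2.22 CPM per kilobase), NUP98 (22.4 ± 0.70), NUP188 (21.6 ± 1.10) and TPR (21.6 ± 3.34). In normal gravity they were highest for NUP188 (29.7 ± 5.33 CPM per kilobase), NUP88 (26.9 ± 3.29), TPR (26.5 ± 2.64) and NUP205 (26.5 ± 7.16). Neighbours among the 4 highest of each group differed by less than the larger SD of the pair. NUP50 ranked 5 of 32 in simulated microgravity (19.6 ± 1.87 CPM per kilobase) and 16 in normal gravity (14.2 ± 3.49). NDC1 ranked 25 in simulated microgravity (5.95 ± 0.81) and 6 in normal gravity (21.2 ± 6.08), and AAAS ranked 28 in simulated microgravity (4.95 ± 0.90) and 10 in normal gravity (16.9 ± 0.55). NUP93, NUP210 and NUP35 were the lowest in both groups apart from NUP210L. Exon lengths came from GENCODE release 29, while the sources used here do not name the annotation behind the deposited counts.

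The pore genes as a whole took 0.202%, 0.211% and 0.192% of all counts in simulated microgravity and 0.276%, 0.301% and 0.205% in normal gravity. Normal gravity replicate 3 thus fell within the range of the simulated microgravity libraries. On TMM-scaled sizes the sums were 2056, 2047 and 1917 CPM in simulated microgravity and 2744, 2984 and 2118 CPM in normal gravity, and there the groups did not overlap.

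Reads of some members can be shared with other genes, because runs of 150 bases, the read length in the labels, occur in transcripts of both. Of such runs in the longest GENCODE transcript, 33.8% of those of POM121 and 25.0% of those of POM121C occur in another gene, among them each other, POM121B and copies of NSUN5. The values of this pair are therefore uncertain. The share was 20.5% for AHCTF1, all in its pseudogene AHCTF1P1, 17.7% for NUP42, 15.5% for NUP62 and 13.4% for NUP88, the last in RPAIN on the other strand. The sources used here do not say whether counting used strand. For RANBP2 it was 6.59%, in its RGPD copies. RGPD4 and RGPD3, copies of RANBP2, averaged 2.75 and 1.13 CPM in simulated microgravity and 0.671 and 0.378 CPM in normal gravity and were called higher, at levels far below RANBP2. For NDC1, AAAS, NUP37, NUP93 and NUP210 no such run was found elsewhere.

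Lists of genes that work with the pore were set against the same shares of all genes tested. Of 18 importins, the receptors that carry proteins into the nucleus, 8 were lower and 5 were higher, with a median log2 fold change of -0.26, where 29.3% of all genes tested were lower and 28.2% were higher. The importins that were higher (27.8%) thus came close to the share of all genes. KPNA2, the importin alpha form linked to proliferating cells, averaged 47.4 ± 1.71 CPM in simulated microgravity and 215 ± 80.8 CPM in normal gravity (log2 fold change -2.18, SE 0.28), and IPO5, an importer of ribosomal proteins and histones, 77.3 ± 12.9 CPM in simulated microgravity and 247 ± 37.2 CPM in normal gravity (-1.68, SE 0.16). In contrast KPNA7, an importin alpha best known from oocytes, averaged 15.0 ± 2.54 CPM in simulated microgravity and 0.731 ± 0.166 CPM in normal gravity (4.36, SE 0.26). KPNA6 averaged 189.9 ± 7.18 CPM in simulated microgravity and 129 ± 1.99 CPM in normal gravity (0.56, SE 0.09). Of the 7 importin alpha genes, 4 were higher, KPNA2 was lower and 2 were not called.

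Exportins were lower in 6 of 7 genes tested and not called in 1, with a median log2 fold change of -0.56, against 29.3% of all genes tested that were lower. CSE1L, which returns importin alpha to the cytoplasm, averaged 152 ± 5.75 CPM in simulated microgravity and 399 ± 127 CPM in normal gravity (-1.39, SE 0.23), and XPO6, the exporter of actin, had a log2 fold change of -0.56 (SE 0.13). RANBP17 of this list was at or near 0 counts and was not tested. In the Ran cycle, which gives transport its direction, 3 of 7 genes (42.9%) were lower and 4 were not called. RAN itself averaged 281 ± 17.9 CPM in simulated microgravity and 686 ± 164 CPM in normal gravity (-1.29, SE 0.18), and RANGRF (MOG1), which binds Ran, fell by 1.06 on the log2 scale (SE 0.18). Of 19 messenger RNA export genes tested, 8 were lower (42.1%) and 1 was higher (5.26%), against 29.3% and 28.2% of all genes tested, with a median of -0.28. THOC3 and THOC7, subunits of the THO complex, had log2 fold changes of -1.26 and -0.70, and NXF1, the main export receptor for messenger RNA, averaged 88.4 ± 18.7 CPM in simulated microgravity and 48.2 ± 3.40 CPM in normal gravity (0.88, SE 0.15). DDX39B of this list was not analysed here.

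The nuclear lamina and inner nuclear membrane list held 8 genes that were higher (47.1%) and 5 that were lower (29.4%) of 17 tested, with a median log2 fold change of 0.17. Of all genes tested, 28.2% were higher and 29.3% lower, so the lower share was that of all genes. LMNB1, a B-type lamin, averaged 3.12 ± 0.33 CPM in simulated microgravity and 79.9 ± 39.4 CPM in normal gravity (-4.68, SE 0.43), and TMPO, which encodes the LAP2 proteins, 74.0 ± 5.36 CPM in simulated microgravity and 188 ± 58.7 CPM in normal gravity (-1.35, SE 0.22). LEMD2, an inner membrane protein that helps seal the envelope after mitosis, averaged 79.9 ± 6.49 CPM in simulated microgravity and 49.7 ± 0.15 CPM in normal gravity (0.68, SE 0.10), and TOR1AIP1, an activator of torsin, had a log2 fold change of 0.64 (SE 0.09). The 15 genes named from these 5 lists, of which 10 were lower and 5 higher, had edgeR adjusted p-values between 8.53e-06 and 0.00679 and kept their calls in all 14 alternatives. Normal gravity replicate 3 was below the mean of replicates 1 and 2 in 59 of the 68 genes tested in the lists, with a median difference of -0.32 on the log2 scale. The part of cell division here was not tested either.

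**Figure D4:**
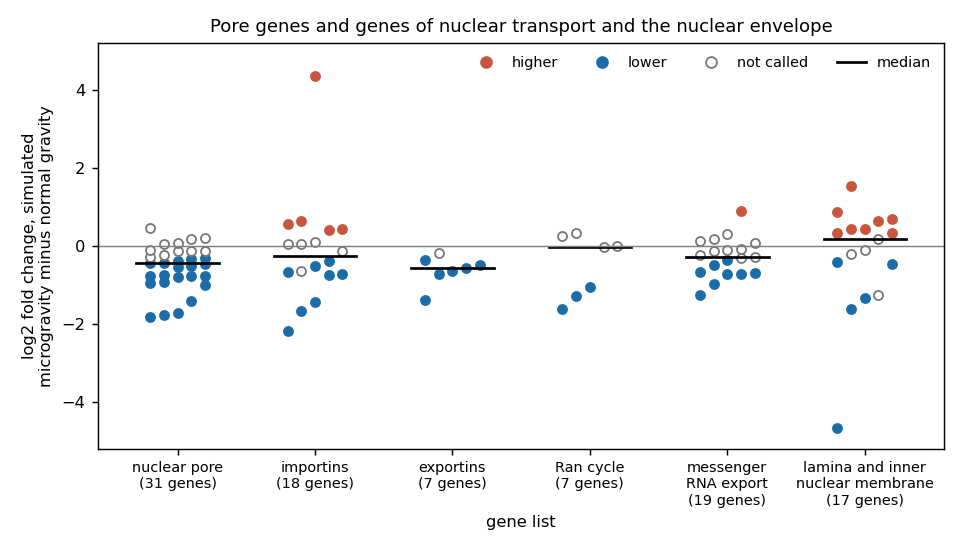
Log2 fold change (simulated microgravity minus normal gravity, y axis) of the 31 pore genes and of the genes tested in 5 lists of nuclear transport and the nuclear envelope; blue points were called lower, red points higher and open points not called, and black lines are medians. The pore genes, the exportins and the Ran cycle show no red point, and the lamina list has a median above 0 (0.17), with LMNB1 lowest at -4.68.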

How the data were processed

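One table deposited by the authors gives raw, whole-number read counts for each gene in the 6 RNA-seq libraries. The submitters' processing notes name fastp, HISAT, HTSeq, DESeq2, R 3.2.0 and the genome build hg38 without their roles. RNA was extracted with TRIzol and read as pairs of 150 bases, per the labels' protocols. Columns were matched to samples by group name and replicate number: the name SMG is the rotary culture group per the labels, and the remaining columns were read as normal gravity.

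Low genes were left out (filterByExpr, minimum count 10), library sizes were scaled by TMM, and tests were made in edgeR 4.0.16 (R 4.3.3, robust quasi-likelihood, Benjamini-Hochberg adjustment over all genes tested). An SE is the absolute log2 fold change over the root of the F statistic. No libraries of a group agreed within sampling noise (chi-square over degrees of freedom 17.9 or more), so none were merged as repeat deposits; this does not show that they are independent. The test was also tried on simulated counts. It recovered 68 of 100 2-fold changes and 93 of 100 4-fold changes, with 11 false calls. Changes below 2-fold were not simulated.

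Members and lists were chosen with earlier results of these data known. Every member is named, with full statistics for the called member of each place with the smallest adjusted p in each direction; other values per library were picked after they were seen. Each transport list gave the 2 called members with the smallest adjusted p in each direction. Alternatives were other scalings, filters and tests (DESeq2 1.42.0, limma 3.58.1), a replicate block and leaving out each library. RefSeq (GRCh38.p14) gave positions and promoters, and GENCODE release 29, on hg38 too, gave exon lengths and transcripts.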

Additional observations from a re-analysis of the deposited data

How the results depend on the processing

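Over 14 alternatives, 13 of the 20 pore genes called lower kept that call in each, and the other 7, AHCTF1, NUP133, NUP160, NUP188, NUP54, NUP58 and NUP62, lost it in at least 1. NUP160 kept the call in 13, NUP133 in 12, AHCTF1 in 11, NUP54 in 10, NUP188 in 9, NUP62 in 5 and NUP58 in 4. The count of lower genes was between 18 and 22 with other scalings, filters, tests or the replicate block, and between 13 (without simulated microgravity replicate 1) and 23 (without normal gravity replicate 3) when a library was left out. The count of higher genes, 0 in edgeR's test, was 1, NUP50, with DESeq2 size factors, no filter on low counts, a filter of CPM above 1 in 3 libraries, the DESeq2 Wald test and limma-voom, and between 0 and 1 when a library was left out. The median log2 fold change was between -0.51 and -0.42 in the first kind of alternative and between -0.60 and -0.36 in the second. The signs that turned belonged to genes not called in edgeR's test on all libraries: NUP98 (-0.044) and POM121C (-0.0084) with upper quartile scaling, and, when a library was left out, NUP98 (-0.080 to 0.12), POM121C (-0.0054 to 0.12) and NUP153 (-0.338 to 0.036). NUP153 was called lower at -0.338, without normal gravity replicate 3. The cause was not tested. All genes changed numbered between 6938 and 9555 when a library was left out. Same-numbered libraries did not deviate together (correlations over genes 0.05, -0.04 and -0.02), so no shared replicate effect was seen. These values cannot show whether the cultures were set up as pairs, because pairs need not deviate together. The labels give no pairing. With the replicate block, 18 pore genes were lower, 0 were higher and the median was -0.44, while 7860 genes changed in all, and NUP58 and NUP62 lost their calls. NUP210L, at 0 to 2 counts in a library, was not tested.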
